A study of Homo sapiens with 15 samples.

Results

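Ribosome biogenesis and RNA polymerase I transcription were examined through 50 genes, chosen by symbol from the proteins that transcribe, modify, cut, fold and export ribosomal RNA and its particles. Each of the 50 symbols matched 1 gene of the 60664 in the deposited table, and all 50 had at least 1 TPM in 3 or more of the 15 libraries. In all 14899 genes reached this level, and every test below ran across all of them. No measured difference between treatments was used to choose them, although earlier results of these data were known when they were chosen.

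HCT116, a cell line from a human colorectal carcinoma and labelled as wild type, was used throughout. Cells received extracts of oil production waste products (OPWPs), which are AE for Apulia, TE for Tuscany and SE for Sicily, or pure hydroxytyrosol (HTyr), the most abundant phenol in such waste, each at 0.0154 mg/mL and for 72 h, and were set against untreated cells. Each of the 5 groups had 3 libraries, labelled as biological replicates, which were stranded and selected for poly(A). Values are TPM, an abundance that is corrected for transcript length and adds up to the same total in each library, so the depth per library is unknown. The codes in brackets in the sample titles name the TE and SE columns the other way round, and the sample descriptions were followed here. If the bracketed codes were right, every TE value below would be an SE value and every SE value a TE value.

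Ribosomes are built in the nucleolus, where RNA polymerase I transcribes the long precursor of the ribosomal RNAs. Small nucleolar ribonucleoproteins (snoRNPs) guide its chemical modification, the box C/D particles for methylation of ribose and the H/ACA particles for pseudouridine, while large sets of assembly factors build the small and the large subunit before both leave through the nuclear pore with the help of RAN and XPO1. Tumour cells are known for enlarged nucleoli, and MYC is a well known activator of many of these genes. The RNA of ribosomes carries no poly(A) tail, so these libraries report the messenger RNA of the machinery and not its product.

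The epithelial markers EPCAM, KRT8, KRT18, KRT19, CDH1 and CDX2 had at least 1 TPM in all 15 libraries, whereas VIL1 and CDH17 stayed under 1 TPM in all of them. LGALS4 and KRT20 reached 1 TPM in fewer than 3 libraries. The 10 epithelial markers summed to 2308 to 3145 TPM in the 12 treated libraries and to 4197 to 4243 TPM in untreated cells. Of 16 fibroblast, leukocyte and endothelial markers, 15 stayed under 1 TPM in every library, and without COL1A1 they summed to 0.45 to 1.3 TPM in treated and 0.56 to 1.3 TPM in untreated cells. The 79 cytosolic ribosomal protein genes took 20.0% to 25.8% of the TPM of treated libraries, against 27.01% to 29.4% in untreated ones. Since TPM are shares of a fixed total, this gap moves with every comparison with untreated cells below, and results were also computed without these 79 genes.

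The 50 genes together took a larger share of the TPM as deposited in all 12 treated libraries. Their TPM summed to 8871 to 9002 for AE, 7891 to 8208 for TE, 10605 to 10812 for SE and 8064 to 8952 for HTyr, against 7459 to 7557 in untreated cells. As a share of all TPM the means were 0.893% ± 0.0068 with AE, 0.803% ± 0.016 with TE, 1.07% ± 0.012 with SE, 0.839% ± 0.049 with HTyr and 0.751% ± 0.0049 in untreated cells (SD, n = 3 each). The 3 SE libraries were the highest of the 15, and no treated library overlapped the untreated ones. HTyr replicate 3 had the upper value of its group and set much of the HTyr spread. NPM1 and RAN were large terms of this sum, and without both it was 6032 to 6245 TPM with SE, against 4443 to 4570 TPM in untreated cells. These are descriptions with no test. In bulk RNA, a change in which cells make up the culture and a change in the RNA of each cell cannot be told apart.

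**Figure D1:**
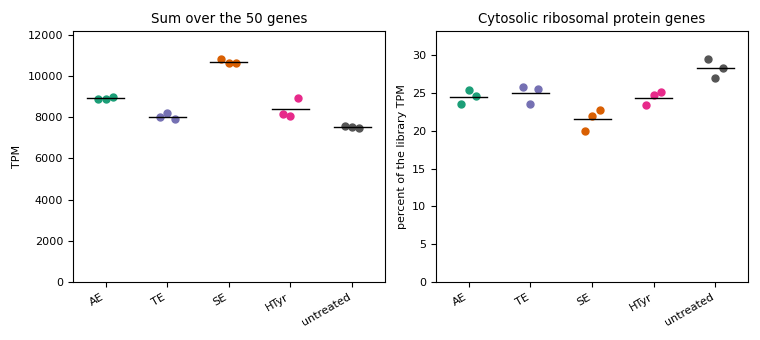
Summed TPM of the 50 genes (left) and the percent of each library's TPM in 79 cytosolic ribosomal protein genes (right), with 1 point per library and the group mean as a line. On the TPM as deposited, all 12 treated libraries sit above the 3 untreated ones on the left and below them on the right. SE is the highest group on the left at 10605 to 10812 TPM.

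A gene was called when its fold change passed 1.5 in either direction at a Benjamini-Hochberg adjusted p under 0.05 over all 14899 genes (limma on log2(TPM + 0.5)), and only called genes are said to have risen or fallen. Of the 50, 12 rose and 1 fell with SE, where 17.0% of all genes tested rose and 11.0% fell. With AE 5 rose and 0 fell, against 10.7% and 5.81% of all genes. With HTyr 3 rose and 1 fell, against 7.80% and 8.45%, and with TE 1 rose and 0 fell, against 7.46% and 5.26%. In the mean of the 4 treatments 5 rose and 0 fell, with 10.4% and 7.43% of all genes. The share of the 50 that rose was above the background with SE, near it with AE and HTyr and below it with TE, and the share that fell was below it in each. At an unadjusted p under 0.05 from limma, 31 of the 50 were higher and 2 lower with SE, 27 and 4 with AE, and 18 and 10 with TE. The counts were 15 and 11 with HTyr and 26 and 6 in the mean of the 4 treatments. In either direction 33 of the 50 passed this p with SE, 31 with AE, 28 with TE, 26 with HTyr and 32 in the mean. Of all 14899 genes 8496, 7098, 6475, 7077 and 8296 passed it in the same order, counted in either direction. The 4 treatments were set against the same 3 untreated libraries, so their calls are not independent of each other. Each comparison was repeated under 3 changes of scale, named below in this order: median-ratio scaling, quantile normalization, and leaving out the ribosomal protein genes. Under them 8, 9 and 8 of the 50 rose with SE and 1 fell each time. Of all genes tested (14899, 14899 and 15558) 2000, 2035 and 1997 rose and 2053, 1943 and 2245 fell. The excess of rises over the background with SE was smaller under each than as reported.

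Small differences were more common than called ones. At an adjusted p under 0.05 with no fold threshold, 30 of the 50 were higher and 1 was lower with SE, where 31.5% of all genes were higher and 20.5% lower. With AE 22 were higher and 3 lower (25.8% and 14.0% of all genes), with TE 16 and 7 (20.3% and 13.7%), with HTyr 13 and 10 (17.9% and 21.5%), and in the mean of the 4 treatments 22 and 4 (28.6% and 21.3%). The median log2 fold change of the 50 was 0.29 with SE, 0.16 with AE, 0.03 with TE and 0.01 with HTyr, while the median over all genes was 0.09 with SE, 0.09 with AE, 0.05 with TE and −0.04 with HTyr. These splits and medians moved with the scale. Under median-ratio scaling the split was 24 higher and 5 lower with SE (25.7% and 25.6% of all genes), 15 and 9 with AE (19.6% and 19.2%), 12 and 10 with TE (18.0% and 16.8%), 16 and 7 with HTyr (19.9% and 20.0%) and 20 and 9 in the mean (25.1% and 25.2%). Under quantile normalization it was 21 and 5 with SE (25.9% and 24.6%), 16 and 9 with AE (20.2% and 18.2%), 11 and 9 with TE (18.1% and 16.5%), 11 and 10 with HTyr (19.6% and 19.8%) and 18 and 10 in the mean (25.3% and 24.3%). Without the ribosomal protein genes it was 22 and 6 with SE (23.3% and 25.0%), 15 and 7 with AE (19.6% and 16.4%), 11 and 11 with TE (15.2% and 16.5%), 8 and 11 with HTyr (13.8% and 25.7%) and 16 and 12 in the mean (21.7% and 25.8%). Under the 3 changes of scale the median of the 50 was 0.18, 0.10 and 0.16 with SE and 0.06, 0.07 and 0.08 with AE, it was slightly negative with TE in all 3, and with HTyr it was 0.04, 0.04 and −0.07. The SE median was above that of all genes in each.

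**Figure D2:**
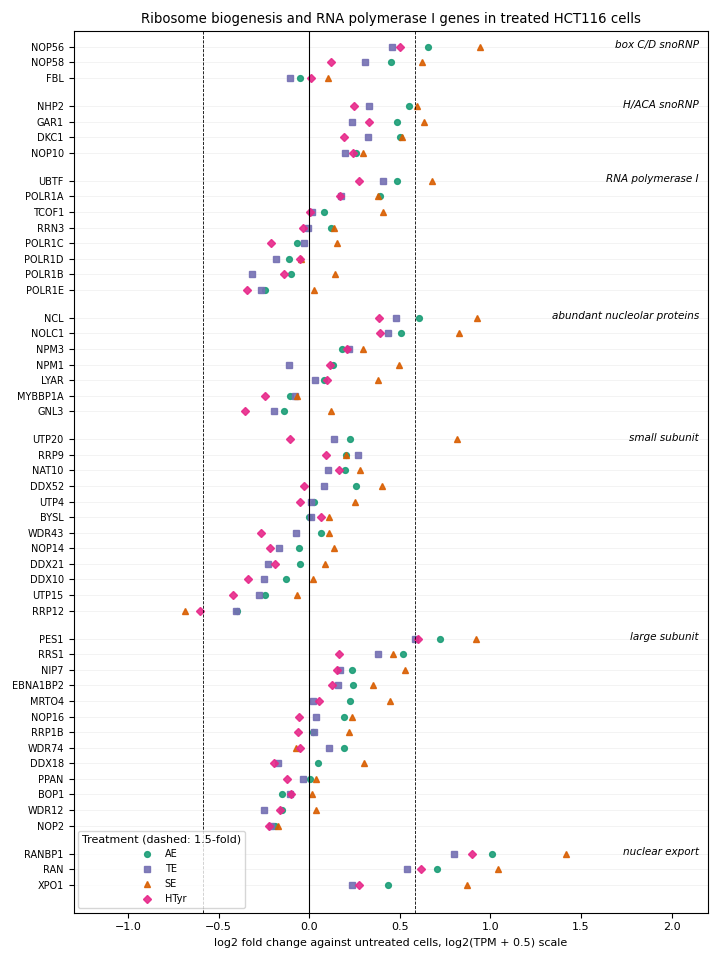
Log2 fold change against untreated cells of each of the 50 genes with AE, TE, SE and HTyr (1 symbol each), grouped by role and ordered within a group by the mean of the 4 treatments; dashed lines mark 1.5-fold. RANBP1, RAN, PES1, NOP56 and NCL lie farthest to the right, RRP12 lies to the left for all 4 treatments, and SE is the rightmost symbol of most genes.

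Of the role groups among the 50, the 3 nuclear export genes had the highest median in each comparison with untreated cells. RAN is the small GTPase whose loaded form drives transport through the nuclear pore, RANBP1 stimulates its hydrolysis of GTP in the cytoplasm, and XPO1 is the exportin that carries both ribosomal subunits out of the nucleus. RANBP1 (chr22:20115938-20127355, plus strand) rose with each treatment. It had 209, 202 and 223 TPM under AE, 192, 189 and 168 under TE, 281, 280.2 and 282 under SE and 183, 201 and 205 under HTyr, against 98.3, 107 and 109.7 TPM in untreated cells. No treated library overlapped the untreated ones. The log2 fold changes, given here and below with the standard error after ±, were 1.01 ± 0.07 for AE, 0.80 ± 0.07 for TE, 1.42 ± 0.07 for SE and 0.90 ± 0.07 for HTyr, with an adjusted p of 1.21e-09 for SE and 1.5e-06 for TE. Transcription of RANBP1 is known to follow the cell cycle.

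RAN (chr12:130872037-130877678, plus strand) was the second most abundant of the 50 by TPM. Its levels were 783, 812 and 811 TPM under AE, 736, 693 and 720.2 under TE, 995, 1029.9 and 1014 under SE and 741, 738 and 792 under HTyr, against 496, 478 and 504 TPM in untreated cells. All 12 treated libraries were above all 3 untreated ones. RAN rose with AE, SE and HTyr, with log2 fold changes of 0.70 ± 0.04, 1.04 ± 0.04 and 0.62 ± 0.04, and stood at 0.54 ± 0.04 with TE, under the 1.5-fold threshold. RAN has 9 processed copies named after it in the annotation, and how reads shared with them were assigned could affect its level. Its HTyr call was lost under quantile normalization (log2 0.46) and without the ribosomal protein genes (0.54).

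XPO1 (chr2:61476032-61538741, minus strand) showed a gap between SE and the other treatments. It had 94.1, 92.8 and 102 TPM under AE, 83.6, 79.1 and 88.2 under TE, 125, 135 and 130.0 under SE and 90.7, 74.6 and 93.7 under HTyr, against 73.2, 71.7 and 68.0 TPM in untreated cells. The SE libraries lay above every other library, whereas the TE and HTyr libraries lay closer to the untreated ones. XPO1 rose with SE (0.87 ± 0.08, adjusted p = 6.02e-07), and its log2 fold changes were 0.44 ± 0.08 with AE, 0.23 ± 0.08 with TE and 0.27 ± 0.08 with HTyr. The 3 export genes had a median log2 fold change of 1.04 with SE, 0.70 with AE, 0.62 with HTyr and 0.54 with TE. In 6 further export genes (RCC1, RANGAP1, RANBP3, NXT1, NUTF2 and PHAX) 0 rose and 0 fell in each of these comparisons, with medians of 0.53 with SE, 0.21 with AE, 0.14 with HTyr and 0.14 with TE.

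**Figure D3:**
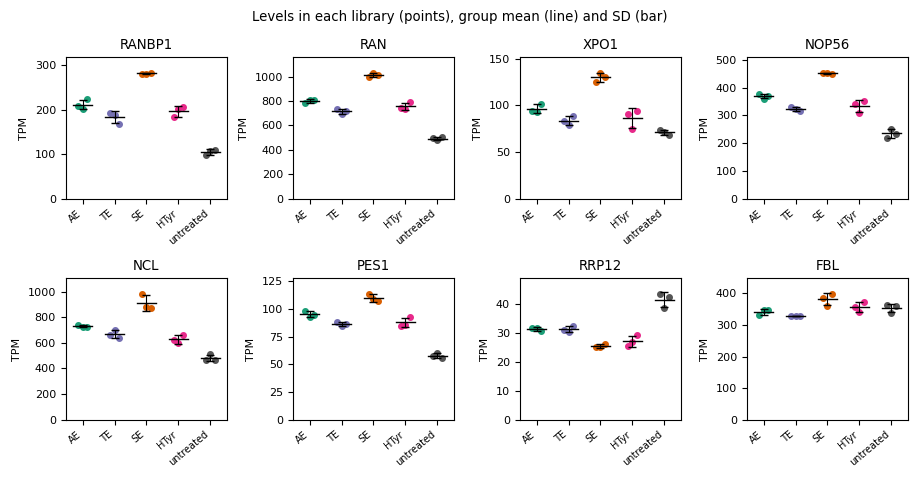
TPM of 8 genes in each of the 15 libraries (points), with the group mean (line) and SD (bar, n = 3), on axes that start at 0. RANBP1, RAN, NOP56, NCL and PES1 are higher in all treated groups with SE on top, RRP12 is lower in all treated groups, and FBL stays between 328 and 398 TPM in all 15 libraries.

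The core proteins of the box C/D snoRNP did not move as a unit. NOP56 and NOP58 are the paired scaffold proteins of the particle, and FBL is its methyltransferase, fibrillarin. NOP56 (chr20:2652593-2658393, plus strand) had 377, 361 and 371 TPM under AE, 329.9, 322 and 318 under TE, 452, 453 and 449 under SE and 341, 308 and 351 under HTyr, against 219, 253 and 234 TPM in untreated cells. Every treated library exceeded every untreated one. NOP56 rose with AE (0.65 ± 0.06) and SE (0.94 ± 0.06, adjusted p = 1.41e-08), and stood at 0.46 ± 0.06 with TE and 0.50 ± 0.06 with HTyr. The AE call was lost under the 3 changes of scale (log2 0.56, 0.55 and 0.58).

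NOP58 (chr2:202265736-202303661, plus strand) had 145, 142 and 142 TPM under AE, 127, 131 and 129 under TE, 162, 163 and 157 under SE and 119, 101 and 122 under HTyr, against 103.8, 103 and 106 TPM in untreated cells. It rose with SE (0.62 ± 0.06), with 0.45 ± 0.06 for AE, 0.30 ± 0.06 for TE and 0.12 ± 0.06 for HTyr, and the SE value dropped under 1.5-fold under the 3 changes of scale (log2 0.51, 0.44 and 0.49). FBL (chr19:39834458-39846379, minus strand), in contrast, was not called in any comparison. Its levels were 331, 347 and 349 TPM under AE, 329, 328 and 328 under TE, 385, 360.2 and 398 under SE and 356, 342 and 372 under HTyr, against 362, 339 and 361 TPM in untreated cells. In the mean of the 4 treatments its log2 fold change was −0.01 ± 0.04 with a 95% interval of −0.09 to 0.07, and with SE it was 0.10 ± 0.05 with an interval of 0.00 to 0.21, which does not reach 1.5-fold. Introns of NOP56 and NOP58 hold 5 and 4 annotated snoRNA genes, and poly(A) libraries do not measure those.

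In the H/ACA snoRNP, all 4 proteins had positive log2 fold changes with each treatment, from 0.19 to 0.63, and 2 of them passed the fold threshold, only with SE. DKC1 is dyskerin, the pseudouridine synthase, and GAR1, NHP2 and NOP10 are its partners. GAR1 (chr4:109815510-109824740, plus strand) had 73.9, 77.7 and 77.1 TPM under AE, 68.4, 57.1 and 67.4 under TE, 84.6, 82.4 and 85.8 under SE and 69.2, 65.2 and 70.4 under HTyr, against 55.6, 48.1 and 59.7 TPM in untreated cells. The 3 SE libraries lay above the other 12. Its SE log2 fold change was 0.63 ± 0.08 (adjusted p = 1.77e-05), and it was under the threshold without untreated replicate 2 (0.55) and under the 3 changes of scale (0.52, 0.47 and 0.50).

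NHP2 (chr5:178149463-178153894, minus strand) varied more between replicates. Its levels were 257, 225 and 271 TPM under AE, 212, 239.9 and 195 under TE, 294, 251 and 235 under SE and 163, 245 and 209.5 under HTyr, against 163, 193 and 159 TPM in untreated cells. NHP2 rose with SE by 0.60 ± 0.14 (adjusted p = 0.00232). This call rested on single libraries, since the log2 fold change was 0.51 without SE replicate 1, 0.56 without untreated replicate 1 and 0.55 without untreated replicate 3, and it was 0.58 with array weights and 0.49, 0.33 and 0.47 under the 3 changes of scale. With AE it was at 0.55, and it passed the call without AE replicate 2 (0.62) or untreated replicate 2 (0.64). DKC1 had 119.7, 124 and 127 TPM under AE, 105, 114 and 109 under TE, 133, 121 and 120.1 under SE and 99.8, 101 and 98.5 under HTyr, against 89.6, 90.3 and 81.7 TPM in untreated cells. Its log2 fold changes of 0.50 with AE and 0.51 with SE were both under the threshold, at adjusted p of 1.16e-05 and 4.06e-06. NOP10 had 326, 332 and 344 TPM under AE, 341, 303 and 317 under TE, 320.0, 347 and 363 under SE and 323, 322 and 343 under HTyr, against 271, 273 and 293 TPM in untreated cells. Its treated libraries all lay above the untreated ones, by log2 0.20 to 0.30.

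Among the 8 genes of RNA polymerase I and its factors in the set of 50, UBTF alone was called. UBTF is the upstream binding factor, which coats the active ribosomal DNA. UBTF (chr17:44205033-44221626, minus strand) had 52.9, 48.6 and 49.1 TPM under AE, 46.5, 51.0 and 45.3 under TE, 61.7, 55.3 and 55.2 under SE and 41.8, 43.6 and 44.3 under HTyr, against 34.5, 38.8 and 34.0 TPM in untreated cells. All treated libraries exceeded the untreated ones. It rose with SE (0.68 ± 0.07, adjusted p = 2.44e-06) and was at 0.49 ± 0.07 with AE, 0.41 ± 0.07 with TE and 0.27 ± 0.07 with HTyr. Under the 3 changes of scale the SE value was 0.57, 0.55 and 0.55, below the threshold.

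The polymerase subunits among the 50 were not called. POLR1A, the largest subunit, had 16.3, 16.5 and 25.4 TPM under AE, 16.8, 16.6 and 15.5 under TE, 17.6, 20.0 and 18.8 under SE and 15.4, 15.5 and 17.7 under HTyr, against 11.5, 14.96 and 17.1 TPM in untreated cells. Its replicates spread widely, and the SE log2 fold change of 0.38 ± 0.16 had an interval of 0.04 to 0.72. POLR1B, the other large subunit of the active centre, had 36.8, 35.5 and 35.9 TPM under AE, 30.3, 35.2 and 27.9 under TE, 39.2, 47.5 and 41.9 under SE and 34.6, 36.4 and 34.4 under HTyr, against 40.6, 38.9 and 36.6 TPM in untreated cells. Its mean was highest with SE, and TE was lower than untreated by log2 0.31 at an adjusted p of 0.0121. POLR1E, a subunit particular to RNA polymerase I, had 34.8, 31.7 and 35.5 TPM under AE, 32.7, 32.2 and 35.6 under TE, 43.4, 40.8 and 39.1 under SE and 28.7, 32.9 and 33.7 under HTyr, against 39.1, 39.5 and 42.4 TPM in untreated cells. It was under the untreated level with AE (−0.24 ± 0.07), TE (−0.26 ± 0.07) and HTyr (−0.34 ± 0.07), but not with SE (0.03 ± 0.07).

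POLR1C and POLR1D are subunits shared with RNA polymerase III. POLR1C had 67.3, 71.9 and 61.2 TPM under AE, 70.5, 70.3 and 64.9 under TE, 76.9, 75.7 and 80.8 under SE and 58.2, 58.1 and 64.8 under HTyr, against 75.8, 68.9 and 65.3 TPM in untreated cells. POLR1D had 181, 163 and 174 TPM under AE, 175, 169 and 151 under TE, 181, 179.8 and 182 under SE and 182, 175 and 184 under HTyr, against 186, 194 and 181 TPM in untreated cells. Neither moved by more than log2 0.21 in either direction with any treatment. RRN3, the factor that brings the polymerase to its promoter, had 54.8, 56.7 and 60.7 TPM under AE, 53.1, 52.5 and 51.9 under TE, 55.9, 60.4 and 58.0 under SE and 52.7, 49.0 and 52.7 under HTyr, against 51.5, 52.5 and 54.3 TPM in untreated cells. TCOF1, the nucleolar protein treacle, had 38.1, 36.3 and 35.8 TPM under AE, 34.2, 36.7 and 34.1 under TE, 48.0, 45.9 and 44.7 under SE and 32.9, 33.9 and 37.7 under HTyr, against 36.6, 34.6 and 32.9 TPM in untreated cells. For TCOF1 the 3 SE libraries lay above all 12 others, with a log2 fold change of 0.41 ± 0.06 against 0.08 with AE, 0.01 with TE and 0.00 with HTyr. Over the 8 genes of this group the median was 0.15 with SE, 0.01 with AE, −0.02 with TE and −0.04 with HTyr.

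Of the abundant nucleolar proteins, NCL and NOLC1 rose and the other 5 were not called against untreated cells. NCL is nucleolin, which binds precursor ribosomal RNA. NCL (chr2:231453531-231483641, minus strand) had 742, 725 and 724 TPM under AE, 661, 701 and 641 under TE, 981, 882 and 873 under SE and 620.1, 599 and 661 under HTyr, against 466, 509 and 465 TPM in untreated cells. Each treated library was above the untreated ones, and the 3 SE libraries were above all others. It rose with AE (0.61 ± 0.06) and SE (0.92 ± 0.06, adjusted p = 2.14e-08), with 0.48 ± 0.06 for TE and 0.38 ± 0.06 for HTyr. The AE call was lost without untreated replicate 3 (log2 0.58) and under the 3 changes of scale (0.51, 0.52 and 0.53), and the call in the mean of the 4 treatments, at 0.60 ± 0.05, was lost without SE replicate 1 (0.58), untreated replicate 1 (0.58) or untreated replicate 3 (0.57) and under the 3 changes of scale (0.54, 0.44 and 0.51).

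NOLC1 is a chaperone of snoRNPs that shuttles between the nucleolus and Cajal bodies. NOLC1 (chr10:102152176-102163871, plus strand) had 195, 184 and 199.6 TPM under AE, 184, 186 and 182 under TE, 253, 235 and 237 under SE and 176, 168 and 193 under HTyr, against 131, 144 and 133 TPM in untreated cells. All 12 treated libraries lay above the untreated range. It rose with SE (0.83 ± 0.06, adjusted p = 6.14e-08), with 0.50 ± 0.06 for AE, 0.43 ± 0.06 for TE and 0.39 ± 0.06 for HTyr. The SE calls of NOLC1, NCL and NOP56 kept their side of both thresholds under every scaling, pseudocount, filter and left-out library tried.

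NPM1, nucleophosmin, was the most abundant of the 50 by TPM. Its levels were 2699, 2796 and 2788 TPM under AE, 2254, 2434 and 2319.7 under TE, 3572, 3544 and 3547 under SE and 2583, 2588 and 3036 under HTyr, against 2585, 2468 and 2512 TPM in untreated cells. The SE libraries lay above all others, the AE libraries lay just above the untreated range, the TE libraries below it, and HTyr overlapped it. The SE log2 fold change was 0.50 ± 0.06 (adjusted p = 8.12e-06), under 1.5-fold, and it passed the call under quantile normalization (0.76). The annotation names 49 pseudogenes after NPM1, so reads shared with them make its level less certain. NPM3, a relative of NPM1, had 188, 181 and 182 TPM under AE, 188, 183 and 196 under TE, 176, 199 and 226 under SE and 192, 171 and 199.9 under HTyr, against 159.8, 155 and 172 TPM in untreated cells. LYAR, a nucleolar zinc finger protein, had 52.1, 54.9 and 47.7 TPM under AE, 52.8, 48.4 and 48.2 under TE, 62.6, 65.4 and 61.8 under SE and 55.5, 46.0 and 55.1 under HTyr, against 50.1, 47.6 and 48.1 TPM in untreated cells. Both stood highest with SE, at log2 0.30 and 0.38.

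GNL3, or nucleostemin, is a nucleolar GTPase known from stem cells and tumour cells. GNL3 had 258, 238 and 244 TPM under AE, 228, 269 and 219 under TE, 328, 291 and 272 under SE and 224, 193 and 221 under HTyr, against 262, 301 and 255 TPM in untreated cells. HTyr lay under the untreated libraries by log2 0.35 (adjusted p = 0.00842), while SE was at 0.12 ± 0.09. MYBBP1A, a nucleolar MYB-binding protein, had 51.9, 42.0 and 47.7 TPM under AE, 47.5, 51.1 and 45.2 under TE, 50.6, 48.0 and 46.4 under SE and 42.2, 42.9 and 42.8 under HTyr, against 49.3, 51.1 and 51.4 TPM in untreated cells. Its log2 fold changes were small, from −0.24 with HTyr to −0.07 with SE.

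Among the 12 genes of the small subunit group 1 rose and 1 fell with SE. UTP20 is a large scaffold protein of the small subunit processome. UTP20 (chr12:101280105-101386618, plus strand) had 7.29, 7.39 and 7.85 TPM under AE, 7.08, 7.22 and 6.84 under TE, 11.0, 13.0 and 10.8 under SE and 6.23, 4.98 and 6.48 under HTyr, against 6.48, 6.17 and 6.41 TPM in untreated cells. The 3 SE libraries lay above the other 12. UTP20 rose with SE (0.81 ± 0.10, adjusted p = 1.35e-05) and stood at 0.22 ± 0.10 with AE, 0.14 ± 0.10 with TE and −0.11 ± 0.10 with HTyr. It was also the gene with the widest gap between treatments, given below.

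RRP12 was the only one of the 50 that fell. The protein is needed for maturation and export of ribosomal precursors, as known from yeast. RRP12 (chr10:97356358-97426076, minus strand) had 31.8, 31.8 and 30.8 TPM under AE, 31.1, 30.6 and 32.5 under TE, 25.4, 25.3 and 26.4 under SE and 25.6, 26.9 and 29.4 under HTyr, against 43.6, 38.9 and 42.6 TPM in untreated cells. No treated library reached the untreated range. It fell with SE (−0.69 ± 0.06, adjusted p = 7.27e-07) and with HTyr (−0.60 ± 0.06), and was at −0.40 ± 0.06 with AE and −0.40 ± 0.06 with TE. The HTyr call was lost without HTyr replicate 1 (log2 −0.56) or untreated replicate 1 (−0.57), with median-ratio scaling (−0.57), quantile normalization (−0.56) and array weights (−0.58).

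The other small subunit factors stayed under the fold threshold. UTP4 and UTP15 belong to the subcomplex that joins the nascent precursor first. UTP4 had 76.6, 84.0 and 76.1 TPM under AE, 81.5, 72.8 and 79.4 under TE, 89.3, 95.4 and 92.2 under SE and 73.5, 70.5 and 80.6 under HTyr, against 79.5, 74.8 and 78.1 TPM in untreated cells. UTP15 had 23.7, 25.7 and 25.2 TPM under AE, 25.1, 24.9 and 22.9 under TE, 29.4, 28.7 and 26.5 under SE and 23.6, 21.4 and 20.9 under HTyr, against 30.5, 29.2 and 29.0 TPM in untreated cells. UTP15 was under the untreated level by log2 0.42 with HTyr, 0.28 with TE and 0.25 with AE, and UTP4 was above it by 0.25 with SE. UTP4 shares its strand and part of its position with SNTB2. NOP14 is a processome protein that binds other assembly factors, and it had 46.2, 43.4 and 41.7 TPM under AE, 39.4, 44.6 and 38.2 under TE, 52.9, 49.0 and 48.8 under SE and 37.5, 40.6 and 39.6 under HTyr, against 46.5, 46.9 and 43.5 TPM in untreated cells. RRP9, which belongs to the U3 particle, had 51.3, 45.9 and 49.7 TPM under AE, 49.2, 53.0 and 51.9 under TE, 50.5, 45.3 and 51.3 under SE and 42.4, 47.5 and 46.0 under HTyr, against 41.9, 41.8 and 43.7 TPM in untreated cells. Its highest mean was with TE, at log2 0.27 ± 0.07.

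DDX10, DDX52 and DDX21 are RNA helicases of the DEAD-box family. DDX10 had 32.1, 29.5 and 27.7 TPM under AE, 32.9, 25.6 and 24.1 under TE, 34.8, 32.0 and 32.4 under SE and 28.9, 22.4 and 26.0 under HTyr, against 33.6, 32.6 and 31.3 TPM in untreated cells. DDX52 had 23.8, 21.9 and 21.7 TPM under AE, 19.9, 21.4 and 18.2 under TE, 27.1, 25.1 and 22.6 under SE and 17.4, 17.1 and 20.8 under HTyr, against 17.6, 20.5 and 18.2 TPM in untreated cells. DDX21 had 128, 127 and 134 TPM under AE, 116, 118 and 109.9 under TE, 143, 150.3 and 135 under SE and 121, 110.4 and 121 under HTyr, against 135, 135 and 131 TPM in untreated cells. HTyr was under the untreated level for DDX10 (log2 −0.34 ± 0.11) and DDX21 (−0.19 ± 0.05), and SE above it for DDX52 (0.40 ± 0.10). NAT10 acetylates cytidines of ribosomal RNA, and it had 49.4, 52.1 and 49.4 TPM under AE, 46.4, 48.8 and 46.1 under TE, 51.5, 54.4 and 54.2 under SE and 47.6, 47.8 and 52.0 under HTyr, against 45.1, 43.9 and 42.5 TPM in untreated cells. All treated NAT10 libraries were above the untreated ones, by log2 0.10 to 0.28. The other small subunit genes, WDR43 and BYSL, overlapped the untreated range with each treatment, with log2 fold changes of −0.26 to 0.11.

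Among 13 genes of the large subunit, PES1 rose and the other 12 were not called. PES1, BOP1 and WDR12 form the PeBoW complex, which is needed to mature the large subunit RNA. PES1 (chr22:30576625-30607083, minus strand) had 98.3, 93.0 and 94.5 TPM under AE, 88.3, 84.8 and 86.2 under TE, 113, 109 and 107 under SE and 84.8, 85.8 and 92.5 under HTyr, against 57.2, 60.1 and 55.5 TPM in untreated cells. Every treated library exceeded the untreated ones by a wide margin. It rose with AE (0.72 ± 0.05), SE (0.92 ± 0.05, adjusted p = 6.03e-09) and HTyr (0.60 ± 0.05), and at 0.58 ± 0.05 with TE lay just under 1.5-fold. The HTyr call was lost without HTyr replicate 3 (log2 0.56), untreated replicate 3 (0.58) or the ribosomal protein genes (0.53).

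The partners of PES1 did not share this change. BOP1, on chromosome 8, had 60.6, 54.9 and 63.9 TPM under AE, 58.0, 65.4 and 61.4 under TE, 72.2, 62.9 and 66.1 under SE and 58.2, 69.0 and 59.2 under HTyr, against 69.4, 65.5 and 64.3 TPM in untreated cells. Its mean log2 fold change over the 4 treatments was −0.09 ± 0.06, with a 95% interval of −0.22 to 0.05. WDR12 ranged over 64.5 to 98.1 TPM in the 12 treated libraries and 65.3 to 106 TPM in untreated cells, and its mean log2 fold change was −0.13 ± 0.13 with an interval of −0.41 to 0.15. The interval of PES1 in the same comparison, 0.62 to 0.79, overlapped neither. These intervals are each gene's own, and the difference between the genes was not tested.

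RRS1, which helps to place the small ribosomal RNA of the large subunit, had 49.9, 44.03 and 47.5 TPM under AE, 44.4, 45.8 and 38.6 under TE, 47.9, 44.3 and 44.02 under SE and 33.1, 38.3 and 39.2 under HTyr, against 33.9, 31.6 and 32.9 TPM in untreated cells. Its log2 fold changes were 0.52 ± 0.08 for AE, 0.38 ± 0.08 for TE, 0.46 ± 0.08 for SE and 0.16 ± 0.08 for HTyr, none past the threshold. NIP7, which takes part in processing of the precursor RNA, had 53.3, 54.0 and 52.5 TPM under AE, 51.4, 50.8 and 50.8 under TE, 64.9, 63.6 and 67.5 under SE and 49.6, 47.7 and 53.9 under HTyr, against 46.9, 41.8 and 47.1 TPM in untreated cells. With SE it was at 0.53 ± 0.06, again under 1.5-fold. MRTO4, a placeholder for a ribosomal stalk protein, had 58.7, 65.6 and 63.1 TPM under AE, 52.9, 52.5 and 57.5 under TE, 69.4, 72.7 and 77.0 under SE and 54.5, 57.8 and 54.0 under HTyr, against 53.0, 52.7 and 54.5 TPM in untreated cells. EBNA1BP2, a nucleolar partner of several assembly factors, had 102, 99.9 and 101 TPM under AE, 96.1, 98.4 and 91.7 under TE, 109, 108 and 109.7 under SE and 94.6, 88.5 and 97.0 under HTyr, against 86.0, 86.7 and 83.5 TPM in untreated cells. SE was the highest group for NIP7, MRTO4 and EBNA1BP2.

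NOP2 is a methyltransferase of large subunit RNA and a classic marker of proliferating cells. NOP2 had 94.1, 87.2 and 91.3 TPM under AE, 90.2, 84.9 and 92.8 under TE, 92.3, 88.6 and 94.9 under SE and 84.8, 83.0 and 98.9 under HTyr, against 114, 103 and 94.8 TPM in untreated cells. All treated means were below the untreated mean, by log2 0.17 to 0.22. NOP16 had 98.6, 99.2 and 99.1 TPM under AE, 88.2, 93.2 and 86.1 under TE, 95.4, 100.4 and 111 under SE and 80.5, 86.0 and 83.4 under HTyr, against 91.4, 87.2 and 81.9 TPM in untreated cells. RRP1B had 26.3, 25.6 and 27.2 TPM under AE, 26.9, 26.3 and 26.1 under TE, 30.5, 31.0 and 29.2 under SE and 23.8, 24.2 and 26.5 under HTyr, against 25.7, 25.1 and 27.0 TPM in untreated cells. WDR74 had 86.4, 80.6 and 80.8 TPM under AE, 76.9, 82.8 and 73.7 under TE, 72.3, 65.5 and 68.0 under SE and 63.4, 71.2 and 75.1 under HTyr, against 73.2, 70.9 and 72.3 TPM in untreated cells. NOP16 and RRP1B stood highest with SE, at log2 0.23 and 0.22, and WDR74 was highest with AE, at log2 0.19. DDX18 and PPAN overlapped the untreated range with each treatment, with log2 fold changes of −0.20 to 0.30.

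Counted by the gap between groups, 13 of the 50 genes had all 12 treated libraries above all 3 untreated ones and 1 had them below, against 15.3% and 11.8% of all genes tested. With SE alone 31 genes lay above and 1 below (34.3% and 23.2% of all genes), with AE 26 and 6 (30.5% and 18.4%), with TE 20 and 9 (26.7% and 20.0%), and with HTyr 14 and 10 (21.7% and 26.7%). Set against all 12 other libraries, the 3 SE libraries were the highest for 20 of the 50 genes and the lowest for 0, where they were the highest for 12.4% and the lowest for 5.27% of all genes. No test was run on these counts.

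SE set apart from the other treatments was the clearest direct comparison. In SE minus HTyr, 2 genes rose and 0 fell, where 4.97% of all genes were higher and 2.38% lower. With no fold threshold 34 of the 50 were higher with SE at an adjusted p under 0.05 and 0 lower, against 22.0% and 6.17% of all genes. The median difference of the 50 was 0.31 in log2 terms, beside 0.13 over all genes. Median-ratio scaling, which moved the median of all genes by −0.13, left 20 higher and 1 lower (11.2% and 10.7% of all genes), quantile normalization left 15 and 1 (10.7% and 9.68%), and leaving out the ribosomal protein genes 29 and 0 (15.6% and 6.59%).

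UTP20 differed by 0.92 ± 0.10 between SE and HTyr, with a 95% interval of 0.70 to 1.14 and an adjusted p of 2.7e-05. XPO1 differed by 0.59 ± 0.08 with an interval of 0.43 to 0.76, and NCL, the next in size, by 0.54 ± 0.06, under 1.5-fold. The XPO1 call was lost without SE replicate 2 (log2 0.57), without HTyr replicate 2 (0.49), with array weights (0.57) and under the 3 changes of scale (0.46, 0.45 and 0.54). UTP20 was then the only gene called, except under quantile normalization, where NPM1 passed the call at 0.59 in place of XPO1. For FBL the difference was 0.09 ± 0.05 with an interval of −0.01 to 0.20, and for RRP12 it was −0.08 ± 0.06 with an interval of −0.22 to 0.05.

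**Figure D4:**
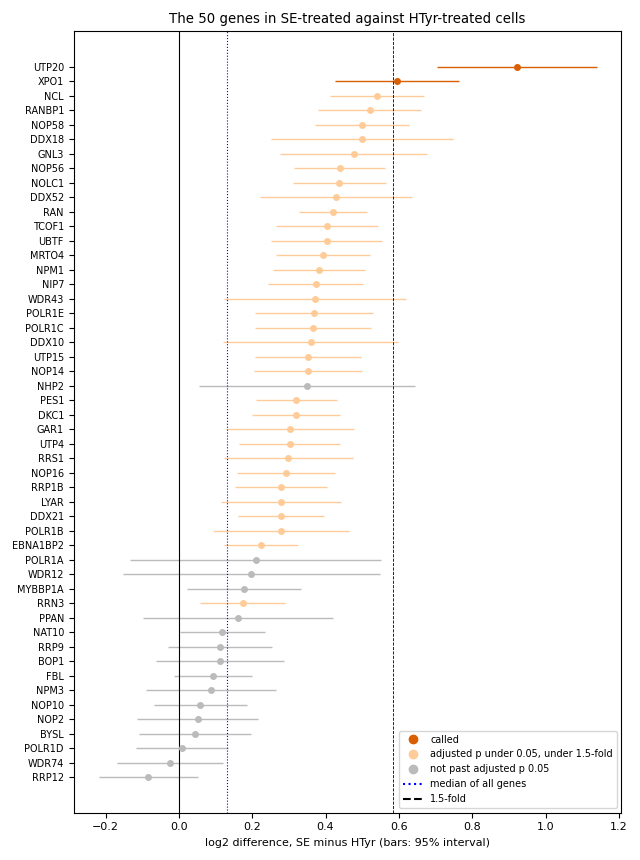
Log2 difference between SE-treated and HTyr-treated cells for each of the 50 genes, with its 95% interval, the median of all genes (dotted) and 1.5-fold (dashed). UTP20 and XPO1 pass the call, 34 genes have an adjusted p under 0.05 on the side of SE, and RRP12 and WDR74 are the only genes with a negative point.

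Against TE, 4 genes were higher with SE and 0 lower (4.70% and 3.66% of all genes), namely UTP20 (0.68 ± 0.10), XPO1 (0.63 ± 0.08), RANBP1 (0.62 ± 0.07) and NPM1 (0.61 ± 0.06). With no fold threshold 31 were higher and 1 lower (17.2% and 9.24%), and in SE minus AE 17 and 2 (9.81% and 7.71%). Under quantile normalization these were 19 and 2 against TE (12.6% and 11.9%) and 10 and 2 against AE (8.18% and 8.24%), and without the ribosomal protein genes 22 and 2 (11.8% and 11.1%) and 10 and 2 (6.24% and 9.13%). The RANBP1 call was lost without TE replicate 3 (log2 0.56) and the NPM1 call without TE replicate 1 (0.58). Under median-ratio scaling UTP20 alone of the 4 stayed called, with XPO1 at 0.57, RANBP1 at 0.56 and NPM1 at 0.54, and without the ribosomal protein genes these were 0.57, 0.56 and 0.54. Under quantile normalization UTP20 and NPM1 stayed called, with XPO1 at 0.52 and RANBP1 at 0.46. Against AE, UTP20 was the only gene called (0.59 ± 0.10, with 1.94% of all genes higher and 2.78% lower), and it was lost without AE replicate 1 (0.57), AE replicate 2 (0.58) or SE replicate 2 (0.51), with a pseudocount of 1 (0.56), with median-ratio scaling (0.58) and without the ribosomal protein genes (0.54).

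Between AE, TE and HTyr no gene of the 50 passed the call. AE minus HTyr gave 0 calls (0.899% of all genes higher and 0.443% lower), TE minus HTyr 0 (0.443% and 0.262%) and AE minus TE 0 (0.0537% and 0.0336%). With no fold threshold 6 of the 50 were higher in AE than in HTyr and 0 lower (8.06% and 1.06% of all genes), where 1 was higher under median-ratio scaling (1.28% and 1.99%) and 1 under quantile normalization (1.42% of all genes higher), while TE minus HTyr had 0 and 0 (2.32% and 0.973%) and AE minus TE 0 and 0 (0.188% and 0.0470%). At an unadjusted p under 0.05 from limma, 21 were higher and 0 lower in AE minus HTyr, 15 and 0 in AE minus TE, and 9 and 3 in TE minus HTyr. Of all 14899 genes, 3904, 1764 and 2925 passed this p in either direction in the same order. The log2 difference was positive for 71.8%, 61.8% and 65.0% of all genes, so the background leaned the same way. For RANBP1 the AE minus HTyr difference was 0.11 ± 0.07 with an interval of −0.03 to 0.25, and for TE minus HTyr it was −0.10 ± 0.07 with −0.24 to 0.04. Such intervals leave room for modest differences.

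The rest of the pathway was described with 157 further genes, of which 156 were tested. Their calls were made on the TPM as deposited and were not repeated under the 3 changes of scale. Those changes moved the median of all genes with SE by −0.10, −0.08 and −0.11, so calls near the fold threshold are less certain. With SE 31 rose (19.9%, against 17.0% of all genes tested) and 3 fell (1.92%, against 11.0%). With AE 15 rose (9.62%, against 10.7%) and 0 fell, with TE 9 rose (5.77%, against 7.46%) and 1 fell, and with HTyr 6 rose (3.85%, against 7.80%) and 5 fell (3.21%, against 8.45%). The share that rose was near the background with SE and AE and below it with TE and HTyr, and the share that fell was below it in each. Their median log2 fold changes were 0.29, 0.15, 0.09 and 0.01 in the same order, close to those of the 50. The group with most rises for its size was the nucleases that trim ribosomal RNA, where 10 of 25 rose and 1 fell with SE, against the 17.0% and 11.0% of all genes given above. In this group 6 rose with AE (24.0%, against 10.7% of all genes), 4 with TE (16.0%, against 7.46%) and 4 with HTyr (16.0%, against 7.80%), and 0 fell. Of the 4 with HTyr, 1 is RMRP, an RNA that was uneven among the HTyr replicates. In the 13 further genes of RNA polymerase I, TTF1, POLR2F, POLR2K and POLR2L rose with SE (log2 0.86, 0.87, 0.83 and 0.60), TAF1D fell with HTyr (−0.78) and POLR2F rose in the mean of the 4 treatments (0.60). POLR2F, POLR2K and POLR2L encode subunits that the 3 nuclear RNA polymerases share, and these genes were named after their values were seen. In the 51 large subunit genes 5 rose (9.80%, against 17.0% of all genes) and 2 fell (3.92%, against 11.0%) with SE, both below the background.

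In the mean of the 4 treatments 14 of the 156 rose (8.97%, against 10.4% of all genes tested) and 1 fell (0.641%, against 7.43%). POP5, a protein of RNase P and RNase MRP, had 47.5, 48.0 and 47.6 TPM under AE, 45.6, 47.7 and 47.0 under TE, 62.3, 68.4 and 69.8 under SE and 43.0, 39.6 and 48.6 under HTyr, against 25.1, 20.3 and 21.3 TPM in untreated cells. It rose in the mean by 1.17 ± 0.07 (adjusted p = 1.26e-08), more than any of the 50. EXOSC3, a cap subunit of the RNA exosome, had 52.8, 50.7 and 51.6 TPM under AE, 49.2, 43.3 and 45.6 under TE, 55.9, 56.9 and 59.2 under SE and 47.6, 42.5 and 46.0 under HTyr, against 23.6, 26.5 and 29.6 TPM in untreated cells. RPP25, another protein of RNase P and MRP, had 4.05, 3.69 and 4.27 TPM under AE, 3.06, 3.41 and 3.36 under TE, 4.84, 4.78 and 4.02 under SE and 4.71, 3.85 and 4.19 under HTyr, against 2.05, 1.66 and 2.15 TPM in untreated cells. Their mean log2 fold changes were 0.90 ± 0.06 and 0.88 ± 0.10. RRP36, a small subunit factor, rose by 0.76 ± 0.06 with 53.7, 51.5 and 56.0 TPM under AE, 50.5, 47.4 and 48.4 under TE, 66.7, 58.9 and 62.9 under SE and 41.2, 43.5 and 49.4 under HTyr, against 29.2, 32.2 and 30.4 TPM in untreated cells. NOL12, an RNA-binding nucleolar protein, rose by 0.72 ± 0.13 with 31.8, 21.9 and 28.2 TPM under AE, 20.8, 25.6 and 22.8 under TE, 26.9, 27.0 and 25.0 under SE and 19.4, 24.1 and 23.4 under HTyr, against 13.6, 19.1 and 12.3 TPM in untreated cells. RPF2, which works with RRS1 on the large subunit, was the only one of the 156 called lower in the mean (−0.63 ± 0.07), with 69.7, 58.5 and 57.5 TPM under AE, 56.4, 61.9 and 58.6 under TE, 65.7, 56.8 and 55.9 under SE and 52.6, 47.2 and 58.6 under HTyr, against 94.0, 89.2 and 87.3 TPM in untreated cells.

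MYC itself went the other way from the genes that rose. MYC had 248, 222 and 227 TPM under AE, 223, 246 and 214 under TE, 206, 213 and 194 under SE and 209.5, 216 and 222 under HTyr, against 365, 363 and 363 TPM in untreated cells. The treated and untreated ranges were far apart. Its log2 fold changes were −0.65 ± 0.06 for AE, −0.68 ± 0.06 for TE, −0.83 ± 0.06 for SE and −0.75 ± 0.06 for HTyr, and it fell in each comparison. MYCL, a relative, had 10.2, 9.70 and 8.79 TPM under AE, 10.7, 10.3 and 9.40 under TE, 3.92, 4.68 and 3.73 under SE and 9.42, 8.24 and 8.80 under HTyr, against 10.4, 10.7 and 10.2 TPM in untreated cells, and fell with SE alone among the 4 comparisons with untreated cells (−1.25 ± 0.09; SE minus HTyr −1.02 ± 0.09). MYCN was listed at 0 in every library.

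MYC and its relatives bind the palindrome CACGTG, known as the E-box, and this motif was searched for in the RefSeq promoters (GRCh38.p14, 250 bases before to 50 after the start). Promoters were found for 39 of the 50 genes, and 20 of these 39 (51.3%) held CACGTG, against 7.26% of all 35116 promoters and 12.5% of the tested genes with a promoter. No promoter was found, and none searched, for RANBP1, NOLC1, NOP58, RRP12, RRS1, RRP1B, DDX52, DDX18, POLR1E, TCOF1 and BOP1. CCGGAAGT, a motif of ETS factors, on either strand, was in 10 of 39 (25.6%), against 10.1% of tested genes. TTTCGCGC, an E2F motif, was in 0, against 1.20% of tested genes. A gene with several promoters counted once, if any of them held the motif. These matches describe the sequence and no binding was measured.

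The following 5 promoters are shown because they belong to genes that moved differently, with any CACGTG in capitals, 5′ to 3′ on the strand of the gene. PES1 and RAN rose, FBL and NOP2 hold the motif and did not rise, and NOP56 rose and its window does not hold it.
PES1 (chr22:30591861-30592160, minus strand): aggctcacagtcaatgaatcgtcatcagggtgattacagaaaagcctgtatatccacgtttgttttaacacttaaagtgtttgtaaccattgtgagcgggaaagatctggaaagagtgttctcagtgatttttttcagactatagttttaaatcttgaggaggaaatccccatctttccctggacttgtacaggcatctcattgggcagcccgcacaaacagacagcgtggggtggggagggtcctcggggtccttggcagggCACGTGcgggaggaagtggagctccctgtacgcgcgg
RAN (chr12:130871816-130872115, plus strand): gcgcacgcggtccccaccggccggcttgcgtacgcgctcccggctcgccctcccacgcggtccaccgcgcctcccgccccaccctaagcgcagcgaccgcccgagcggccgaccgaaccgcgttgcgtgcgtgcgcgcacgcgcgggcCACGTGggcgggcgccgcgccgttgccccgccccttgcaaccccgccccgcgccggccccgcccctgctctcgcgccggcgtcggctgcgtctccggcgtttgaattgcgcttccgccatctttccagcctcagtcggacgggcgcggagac
FBL (chr19:39846330-39846629, minus strand): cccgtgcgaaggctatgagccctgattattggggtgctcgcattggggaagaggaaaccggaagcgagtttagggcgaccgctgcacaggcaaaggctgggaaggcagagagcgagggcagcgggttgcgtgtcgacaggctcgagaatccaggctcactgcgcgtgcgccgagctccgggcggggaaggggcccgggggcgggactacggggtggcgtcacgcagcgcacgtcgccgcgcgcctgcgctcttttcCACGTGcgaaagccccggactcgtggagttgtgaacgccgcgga
NOP2 (chr12:6568242-6568541, minus strand): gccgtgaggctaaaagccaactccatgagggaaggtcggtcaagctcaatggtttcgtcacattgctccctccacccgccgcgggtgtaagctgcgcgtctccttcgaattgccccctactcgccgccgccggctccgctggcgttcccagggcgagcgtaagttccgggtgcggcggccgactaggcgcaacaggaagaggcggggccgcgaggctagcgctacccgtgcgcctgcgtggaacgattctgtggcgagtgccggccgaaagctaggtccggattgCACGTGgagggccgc
NOP56 (chr20:2652382-2652681, plus strand): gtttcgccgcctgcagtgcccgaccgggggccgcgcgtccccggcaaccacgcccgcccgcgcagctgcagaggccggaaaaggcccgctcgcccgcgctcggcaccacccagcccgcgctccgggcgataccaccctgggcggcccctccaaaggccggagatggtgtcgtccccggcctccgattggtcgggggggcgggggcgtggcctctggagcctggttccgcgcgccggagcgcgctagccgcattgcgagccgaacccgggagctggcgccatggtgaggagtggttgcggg
The motif began at base 14 after the start in PES1, at 7 in FBL and at 36 in NOP2, and 102 bases before the start in RAN.

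The fold changes of genes with and without the motif overlapped. With SE, 5 of the 20 genes with CACGTG rose and 4 of the 19 without, with medians of 0.27 and 0.23, where 17.0% of all genes tested rose. RANBP1, NOLC1 and NOP58, which rose with SE, and RRP12, which fell, had no promoter and are in neither class. With AE the medians were 0.14 with the motif and 0.18 without, with TE 0.03 and 0.04, and with HTyr 0.06 and −0.04. Counts of rises were 2 and 2 with AE (10.7% of all genes), 0 and 0 with TE (7.46%), and 2 and 0 with HTyr (7.80%). No test was run between the motif classes.

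**Figure D5:**
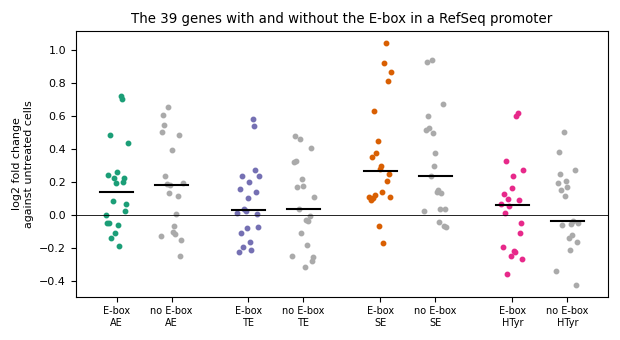
Log2 fold change against untreated cells of the 20 genes with and the 19 genes without CACGTG in a RefSeq promoter, for AE, TE, SE and HTyr (points, 1 per gene, with the median as a line). The point clouds overlap throughout, with medians of 0.27 and 0.23 for SE.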

How the data were processed

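RNA-seq libraries of HCT116 cells, 3 in each of 5 groups, were used as 1 table of TPM, the unit in which the authors deposited their values. The authors clipped and trimmed the reads, used STAR for alignment to GRCh38 and RSEM for Ensembl gene levels (study methods and submitters' processing notes; tool versions: not given in the sources used here). All TPM were rounded to 2 decimals, were not scaled between libraries and keep no depth, so depth is unknown and counting error cannot be stated. Their rounding limits the precision of low values.

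Groups were taken from the sample descriptions. Bracketed codes in the titles name the TE and SE columns the other way round. The 50 genes, their role lists, the 157 further pathway genes and the marker lists were chosen with earlier results of these data known. Symbols and coordinates are from GENCODE 44. Of the 50, 5 share a strand and position with another gene and 23 overlap a gene on the other strand. The kit keeps the strand, but no strand setting of RSEM was found in the methods or labels. 13 have pseudogenes named after them. Promoters are from RefSeq (GRCh38.p14).

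Values were analysed as log2(TPM + 0.5), so fold changes of low genes are understated. The filter kept genes that reached 1 TPM in 3 or more of 15 libraries (14899 tested, 45765 left out). The 5 group means were fitted with limma 3.58.1 in R 4.3.3 (10 residual and 3.42 prior degrees of freedom, mean-variance trend), with two-sided tests and Benjamini-Hochberg adjustment over all genes tested. Intervals are 95% intervals of this fit. Tables and plots used Python 3.11.15, numpy 2.4.6, pandas 2.3.3 and matplotlib 3.10.9. On simulated data for SE minus untreated, with 200 of 14899 genes changed, the test called 90.0%, 80.0%, 52.5%, 82.5% and 100% of the 40 genes at log2 changes of -2, -1, 0.7, 1 and 2, with 5 false calls.

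Values in every library are given for the genes with the largest mean change in each role list (2 or 3), those called against the direction of their list, the 3 with the largest differences in SE minus HTyr, TE or AE, and those not called whose groups did not overlap in a treatment. NPM1 was given outside this rule, after its values were seen. The 5 largest rises and falls called in the mean are named for the further pathway genes. Alternatives were pseudocounts of 0.1 and 1, no filter or a floor of 5 TPM on the mean, quantile normalization, median-ratio scaling, omission of 37 mitochondrially encoded or 79 cytosolic ribosomal protein genes, a replicate block, array weights, no trend, only the groups compared, other fold thresholds and leaving out each library.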

Additional observations from a re-analysis of the deposited data

How the results depend on the processing

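No value reversed. Of 1438 alternative values for single genes, 1372 kept their side of the thresholds, 65 lost a call and 1 gained it. Many of these alternatives could hardly move a fold change, such as leaving out a library of a group not compared. Under median-ratio scaling 13 of the 54 single-gene values lost a call, under quantile normalization 14 and without the ribosomal protein genes 15. Some of the 54 were not called as reported and had no call to lose. The report names the calls lost, except 3 in the mean of the 4 treatments: NOP56 at log2 0.50 under quantile normalization and 0.55 without the ribosomal protein genes, and RAN at 0.58 under quantile normalization. RRP12 gained a call in that mean without the ribosomal protein genes (−0.61). Genes not called as reported that passed elsewhere were NHP2 with AE and NPM1 with SE and in SE minus HTyr, as the report gives, and PES1 with TE under the alternatives listed next and at 0.60 and 0.61 without TE replicate 2 and untreated replicate 2. Why each call was lost was not tested.

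Of the 50 genes, the number called with AE was 3 under median-ratio scaling, quantile normalization and without the ribosomal protein genes (5 as reported). With TE it was 2 with a pseudocount of 0.1, without the mitochondrially encoded genes and with array weights (1 as reported). With HTyr it was 2 under quantile normalization and without the ribosomal protein genes (4 as reported), and in the mean of the 4 treatments 2 under quantile normalization (5 as reported). With SE 8 rose under median-ratio scaling and without the ribosomal protein genes and 9 under quantile normalization (12 as reported), and 1 fell in each. In SE minus HTyr 1 was called under median-ratio scaling, without the ribosomal protein genes and with array weights (2 as reported), in SE minus AE 0 with a pseudocount of 1, under median-ratio scaling and without the ribosomal protein genes (1 as reported), and in SE minus TE 1 under median-ratio scaling and without the ribosomal protein genes and 2 under quantile normalization (4 as reported). With no fold threshold the counts were 25 for AE, 23 for TE, 31 for SE, 23 for HTyr, 26 for the mean, 6 for AE minus HTyr, 34 for SE minus HTyr, 19 for SE minus AE and 32 for SE minus TE. With a 2-fold threshold they were 1 for AE, 0 for TE, 2 for SE, 0 for HTyr, 1 for the mean, and 0 for SE minus HTyr, SE minus AE and SE minus TE.

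Leaving out 1 library at a time gave 4 to 6 called genes with AE, 1 to 2 with TE, 12 to 13 with SE, 3 to 4 with HTyr, 4 to 5 in the mean, 1 to 2 in SE minus HTyr, 0 to 1 in SE minus AE, 3 to 4 in SE minus TE and 0 in the other pairs. The TE count was 2 without TE replicate 2 or untreated replicate 2.

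The summed TPM of the 50 genes relative to untreated cells was 1.19 with AE, 1.07 with TE, 1.42 with SE, 1.12 with HTyr and 1.20 in the mean. It was 1.11 with AE, 1.04 with TE and 1.32 with SE under median-ratio scaling, and 1.13, 1.02 and 1.30 without the ribosomal protein genes. It was 1.16 with AE and 1.37 with SE under quantile normalization, and 1.21 with AE, 1.10 with TE and 1.45 with SE without the mitochondrially encoded genes. Ratios left out here, among them all those of HTyr and of the mean under these changes, should not be read as unchanged. Ribosomal protein genes took a mean of 24.4% of the TPM with HTyr and 28.2% in untreated cells. Leaving them out therefore lowers the HTyr ratio too. On the TPM as deposited, leaving out 1 library moved the ratios within 1.18 to 1.19 for AE, 1.06 to 1.08 for TE and 1.41 to 1.43 for SE. They moved within 1.08 to 1.14 for HTyr and 1.19 to 1.20 for the mean, with the lowest HTyr value without HTyr replicate 3.

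Scaling also moved the background. For all genes tested, the split of higher and lower calls in SE minus untreated was 2532 and 1636 as reported, 2000 and 2053 under median-ratio scaling and 1997 and 2245 without the ribosomal protein genes. For AE it was 1601 and 865, with 1200 and 1160 under median-ratio scaling, and for SE minus HTyr 741 and 355, with 323 and 561.

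The residuals did not show a pairing of libraries by replicate number, and with 3 libraries per group they cannot exclude one. Residuals of libraries with the same number correlated between −0.21 and 0.26 (median 0.00, 30 pairs), and 4 of 15 libraries matched their own number best. Between groups, libraries with different numbers correlated between −0.225 and 0.28 (median 0.01, 60 pairs). With the number as a block, the count of called genes was 5 with AE, 1 with TE, 13 with SE, 4 with HTyr and 5 in the mean, 2 in SE minus HTyr, 1 in SE minus AE and 4 in SE minus TE, and 0 in the other pairs, the same counts as without it.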

Other observations

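RMRP, the RNA of RNase MRP, is not polyadenylated as a rule and was uneven among replicates. It had 14.3, 41.8 and 25.3 TPM with AE, 36.2, 12.7 and 49.7 with TE, 14.4, 31.1 and 35.8 with SE and 213, 271 and 11.6 with HTyr, against 2.39, 19.1 and 23.7 TPM in untreated cells. It passed the call with HTyr (log2 fold change 3.00 ± 1.05, limma adjusted p = 0.0373), although HTyr replicate 3 lay under 2 of the 3 untreated libraries. It was named after its values were seen.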
